A study of Mus musculus with 32 samples.

Results

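The 10 genes of RNA-binding proteins described here were the ELAV family members Elavl1, Elavl2, Elavl3 and Elavl4, the Nova genes Nova1 and Nova2, the Rbfox genes Rbfox1, Rbfox2 and Rbfox3, and Ptbp2. They were taken by symbol from a table of reads on the 3′UTRs of 44081 genes, and their 27 3′ end features were taken by gene name from a table of 74532 such features. The measurements came from 32 RNA-seq libraries, a soma library and a dendrite library from each of 16 mouse hippocampal neurons. The neurons were from embryonic day 18 C57BL/6 mice and were cultured for 15 days, and the labels name no treatment in either group. Soma and dendrites of 1 cell were separated by micropipette, and antisense RNA (aRNA) amplification ran for 3 rounds in neurons 1 to 4 and for 2 in neurons 5 to 16. The question was whether RNA of these genes was relatively higher in dendrites or in the soma of the same cell, and whether the 2 compartments used different 3′ ends. Each pair was 1 cell, so the 16 neurons were the replicates; which culture each cell came from was not given in the sources used here, so p-values measure the spread between these cells.

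ELAV proteins bind U-rich and AU-rich sequence, largely in 3′UTRs, and affect the stability, translation and splicing of their targets; Elavl1 (HuR) is made in most cells, whereas Elavl2 (HuB), Elavl3 (HuC) and Elavl4 (HuD) are mainly neuronal. Nova and Rbfox proteins regulate alternative splicing of neuronal transcripts, the Nova proteins through clusters of a short motif around CA and the Rbfox proteins through TGCATG, and both are also known to bind 3′UTRs. Rbfox3 is the NeuN antigen used to mark neurons. Ptbp2, which binds CU-rich sequence, takes over from its relative Ptbp1 as neurons differentiate.

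The libraries were read mainly at 3′ ends, so the ends of these genes are shown first. In the GENCODE M21 annotation of GRCm38 (the mm10 build of the files), the genes lay at chr8:4285382-4325413 (Elavl1), chr4:91250763-91400785 (Elavl2), chr9:22015005-22052023 (Elavl3), chr4:110203722-110351909 (Elavl4), chr12:46694517-46818929 (Nova1), chr15:77078990-77307004 (Rbfox2), chr11:118489762-118911597 (Rbfox3) and chr3:119718742-119784466 (Ptbp2) on the minus strand. Nova2 (chr7:18925888-18965319) and Rbfox1 (chr16:5885355-7411526) lay on the plus strand. Their longest annotated 3′UTRs ran from 1477 nt (Rbfox3) to 6701 nt (Nova2), against a median of 1407 nt over 9087 tested genes with a 3′UTR. The poly(A) signal AATAAA, searched on the transcript strand, stood in the last 500 nt of the 3′UTR of 7 of the 10 genes and of 75.8% of 7238 tested genes with a 3′UTR of that length. The windows of 30 bases below lie in the 3′UTR and hold the copy of AATAAA nearest to the annotated end, in capitals, 5′ to 3′ on the transcript strand.
Elavl1, chr8:4285382-4285411: ctgacattgctgtccaaagtcaacAATAAA
Elavl2, chr4:91250770-91250799: gttcggtacatcAATAAAcaaagttgaagg
Elavl3, chr9:22015009-22015038: ttcatgccagaaAATAAAaagttcagaatc
Elavl4, chr4:110203744-110203773: atctgtccagacAATAAAtgaaagtgtgta
Rbfox2, chr15:77078992-77079021: gcactgtttttaAATAAAagagagaaacac
Rbfox3, chr11:118489768-118489797: attattaagattAATAAAgatttctttctt
Ptbp2, chr3:119718750-119718779: ctttataccataAATAAAtccagatgctgt
Nova1, chr12:46695103-46695132: atttgtttctctAATAAAtctgcaaatagc
Rbfox1, chr16:7410743-7410772: aaaaaagaaagtAATAAAaacttaaattct
In the first 7 genes the motif began between 6 and 40 nt before the annotated end, and in Elavl1 the annotation stopped at the motif itself. In Nova1 and Rbfox1 it began 604 nt and 772 nt before the end, and the longest 3′UTR of Nova2 held no copy.

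Dendrite libraries were shallower than soma libraries, with 646521 to 6954420 reads on 3′UTRs against 925525 to 21169974. The dendrite libraries of neurons 15 and 16 stood apart, with 1570 and 2485 genes at 10 or more reads against a dendrite median of 6053, and with 35.8% and 32.4% of reads on mitochondrial RNA against 15.3% ± 9.80 over all dendrites (SD, n = 16) and 2.02% ± 2.12 over somas. The part of these differences in the results below was not tested beyond the values given with and without both neurons. All 5 neuronal markers (Map2, Tubb3, Snap25, Syt1, Nefl) had reads, and their summed level was 2907 to 14576 CPM (counts scaled to the effective library size) in dendrites and 3164 to 12386 in somas. The 3 GABAergic markers (Gad1, Gad2, Slc32a1) summed to 1737 to 11316 CPM in dendrites (median 4033) and 1126 to 19881 in somas (median 9639). The 4 glutamatergic markers (Slc17a7, Slc17a6, Neurod6, Camk2a) summed to 0 to 479 CPM in dendrites (median 136) and 0 to 1928 in somas (median 35.6). In somas the ranges of both lists overlapped between 1126 and 1928 CPM, and the GABAergic median lay above the glutamatergic range. Summed astrocyte markers reached 663 CPM in dendrites (median 33.1) and 146 in somas (median 13.1). The medians of the oligodendrocyte, microglial and endothelial lists were 8.30, 1.18 and 2.11 CPM in dendrites and 1.59, 0.199 and 0.242 in somas, and Cldn5 had no read in any library.

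All 10 genes passed the filter of at least 1 read in at least 16 libraries, and in none of them did dendrites and somas differ past the threshold. In simulated data the same fit called 3 of 100 genes changed by log2 2 and 34 of 100 changed by log2 4. The absence of a call therefore does not show equal levels. At an adjusted p of at most 0.05 in edgeR's paired fit, 0 of 10 were called higher in dendrites, against 0.827% of 10880 genes tested, and 0 of 10 were called higher in somas, against 5.71%. At an unadjusted p under 0.05, 2 of 10 (Nova2 and Ptbp2) were higher in somas, against 26.7% of all genes, and none was higher in dendrites, against 3.55%. The fitted median over all genes was a log2 fold change of -1.49, dendrites over somas, so values below are also given relative to it. This median depended on the setting, with -0.22 without pairing by neuron and -0.17 with no filter on low counts. With 3 rounds alone it was -0.62, and with exon counts scaled to spike-in RNA -4.11. The median of the 10 genes was -1.41, with 5 genes above the all-gene median (Elavl1, Elavl2, Elavl3, Rbfox1 and Rbfox2) and 5 below it (Elavl4, Nova1, Nova2, Rbfox3 and Ptbp2). This split moved with the setting, from 2 genes above the median with no filter on low counts to 7 with exon counts, with 3 rounds alone, without neuron 3 or without neurons 15 and 16; in the last case Elavl4 (-0.95) and Rbfox3 (-0.86) lay above a median of -1.01. In every gene the range of dendrite values overlapped the range of soma values. The share of all genes with such an overlap was not counted, so it does not set these genes apart. The calls depended on the tool, the table and the scaling: DESeq2 with the same pairing called 6 of 10 higher in somas (46.2% of all genes), and exon counts scaled to spike-in RNA, which had been added in 14 of the 16 neurons, called 8 of 10 (62.7% of 9804 genes).

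**Figure D1:**
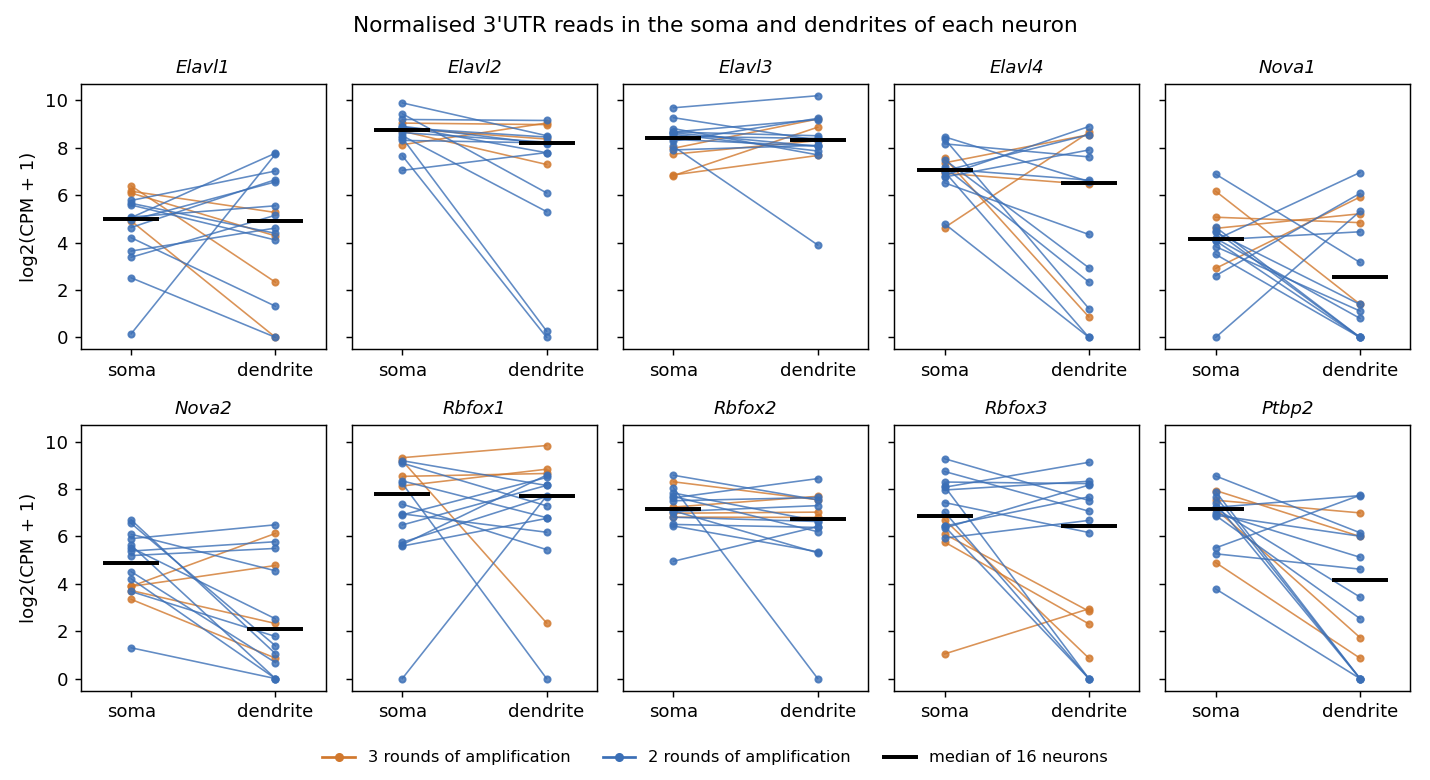
Normalised level of each gene, as log2(CPM + 1), in the soma and dendrites of each neuron. Each line joins the compartments of 1 neuron, coloured by rounds of amplification, and black bars are medians of 16 neurons. Elavl3 had reads in every library, whereas Nova2, Rbfox3 and Ptbp2 fell to 0 in 3, 3 and 4 dendrites.

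Among the ELAV genes, Elavl3 had the fold change nearest to 0 in edgeR's paired fit. Its level was lowest at 113, median 341 and highest at 824 CPM in somas, and lowest at 13.9, median 317 and highest at 1173 CPM in dendrites. It was higher in dendrites in 8 neurons and in somas in the other 8, with the lowest dendrite in neuron 10 and the highest values of both compartments in neuron 15. The fitted log2 fold change was 0.01 ± 0.54 (SE, n = 16 neurons; edgeR adjusted p = 0.994), which was 1.50 above the median gene. With spike-in scaling of exon counts, however, Elavl3 was called higher in somas (edgeR adjusted p = 0.0236). For this gene and Rbfox1, whose fold changes were near 0, the SE is that of the same fit scaled to the median gene.

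Elavl2 was the ELAV gene with the highest soma median. It ranged over 131, 432 and 951 CPM (lowest, median, highest) in somas and over 0, 290.2 and 568 CPM in dendrites. It was lower in dendrites in 14 of 16 neurons and close to absent in the dendrites of neuron 11 (1 read) and neuron 15 (0 reads). The fitted log2 fold change was -1.21 ± 0.69 (edgeR adjusted p = 0.218), or 0.28 above the median gene, and -0.73 without neurons 15 and 16. Elavl2 was called higher in somas with DESeq2 and with spike-in scaling of exon counts.

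Elavl4 varied more from neuron to neuron than Elavl2 or Elavl3. Its levels were 23.8, 133 and 352 CPM in somas and 0, 90.5 and 476 CPM in dendrites. Dendrites were higher in 5 neurons (1, 2, 9, 10 and 14) and at 0 in neurons 12 and 16, so the compartments overlapped over the whole soma range. The log2 fold change was -1.83 ± 1.12 (edgeR adjusted p = 0.250), or -0.33 relative to the median gene. It was -0.95 without neurons 15 and 16, and -1.18 without either of them. With DESeq2 and with spike-in scaling of exon counts, Elavl4 was called higher in somas.

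Elavl1, the family member made in most cell types, was the least abundant of the 4. Somas had 0.11, 31.0 and 82.9 CPM and dendrites 0, 29.0 and 218 CPM. Dendrites were higher in 8 of 16 neurons. Neuron 15 was the extreme, with 320 reads in the dendrites and 1 in the soma, and neurons 4 and 8 had no read in the dendrites. It had a log2 fold change of -0.32 ± 1.13 (edgeR adjusted p = 0.859), 1.17 above the median gene.

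In somas the Nova genes and Elavl1 had the lowest levels per kilobase of exon, and the dendritic reads of the Nova genes were concentrated in a few neurons. Nova1 had 0, 16.7 and 117 CPM in somas and 0, 4.79 and 123 CPM in dendrites, with 4 dendrites (neurons 7, 8, 9 and 11) and the soma of neuron 6 at 0. Its highest dendrite values came from neurons 12, 5 and 4, which had 123, 66.5 and 59.6 CPM against 16.4, 5.07 and 6.51 in the paired somas. The fitted difference in log2 was -2.44 ± 1.66 (edgeR adjusted p = 0.300), with dendrites higher in 6 of 16 neurons. Without neurons 15 and 16 it was -1.69 and with exon counts -0.52, and the dendrites of neuron 8, at 0 on the 3′UTR, had 69 exon reads. DESeq2 with the same pairing called Nova1 higher in somas (DESeq2 adjusted p = 0.00717).

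Nova2 had 1.46, 28.7 and 103 CPM in somas and 0, 3.22 and 88.9 CPM in dendrites. Of its dendrites 6 had 10 or more reads, 7 had 1 to 5 reads and 3 had none, whereas all 16 somas had at least 14 reads. The log2 fold change was -2.61 ± 1.25 (unadjusted p = 0.0427; edgeR adjusted p = 0.152), and dendrites were lower in 11 of 16 neurons. It was called under DESeq2 (adjusted p = 0.000442) and with spike-in scaling (adjusted p = 0.00518), while over all alternatives the adjusted p ran from 0.000442 to 0.994.

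Rbfox1 and Rbfox2, splicing regulators that read the same motif, had overlapping levels in both compartments and did not pass the test, although both were called higher in somas with spike-in scaling of exon counts (-2.58 and -3.02, edgeR adjusted p = 0.0433 and 0.0248). Rbfox1 had 0, 221 and 639.6 CPM in somas and 0, 206 and 913 CPM in dendrites, with the dendrite value above the soma value in 9 of 16 neurons. The 2 zeros lay in opposite compartments: the soma of neuron 12 had no read while its dendrites had 348, and the dendrites of neuron 15 had none while the soma had 2782. Its log2 fold change was 0.00 ± 0.85 (edgeR adjusted p = 1.00), 1.49 above the median gene.

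Rbfox2 had 29.9, 142 and 382 CPM in somas and 0, 105 and 346 CPM in dendrites. Only the dendrites of neuron 15 were at 0, and the other 15 dendrites all had at least 42 reads. The log2 fold change was -0.51 ± 0.71 (edgeR adjusted p = 0.621), 0.98 above the median gene, with dendrites higher in 6 of 16 neurons. Without neurons 15 and 16 it was -0.12.

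Rbfox3 had 1.06, 117 and 621 CPM in somas and 0, 86.0 and 559 CPM in dendrites. The dendrites of neurons 13, 15 and 16 had no read, and those of the 4 neurons with 3 rounds had 0.817 to 6.69 CPM. Dendrites with 2 rounds had 0 to 559 CPM (median 157), a range that held the 3-round values, and all 3 zeros were among them. Somas had 1.06 to 103 CPM with 3 rounds and 59.9 to 621 with 2, and the part of the rounds in these levels was not tested. The paired fit gave -1.62 ± 1.04 (edgeR adjusted p = 0.272), or -0.13 relative to the median gene, and it was -0.86 without neurons 15 and 16. Both DESeq2 and spike-in scaling of exon counts called Rbfox3 higher in somas.

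Ptbp2 had the largest difference between compartments of the 10 genes. It had 12.8, 143 and 374 CPM in somas and 0, 16.7 and 212 CPM in dendrites. Dendrites were lower in 14 of 16 neurons; the exceptions were neurons 9 and 12, and the dendrites of neurons 8, 13, 15 and 16 had no read. The fit gave a log2 fold change of -3.35 ± 1.12 (unadjusted p = 0.00429; edgeR adjusted p = 0.0569), or -1.86 relative to the median gene, and 18.0% of the genes tested had a lower value. Ptbp2 was therefore short of the threshold, and it passed under DESeq2 (adjusted p = 7.96e-06), with RLE scaling (0.0393; 9.26% of all genes were called higher in somas there), without neuron 2 (0.0453) or neuron 5 (0.0435), and with spike-in scaling of exon counts (0.00145). Without neurons 15 and 16 the log2 fold change was -2.62 (edgeR adjusted p = 0.146), and over all alternatives the adjusted p ran from 7.96e-06 to 0.734.

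**Figure D2:**
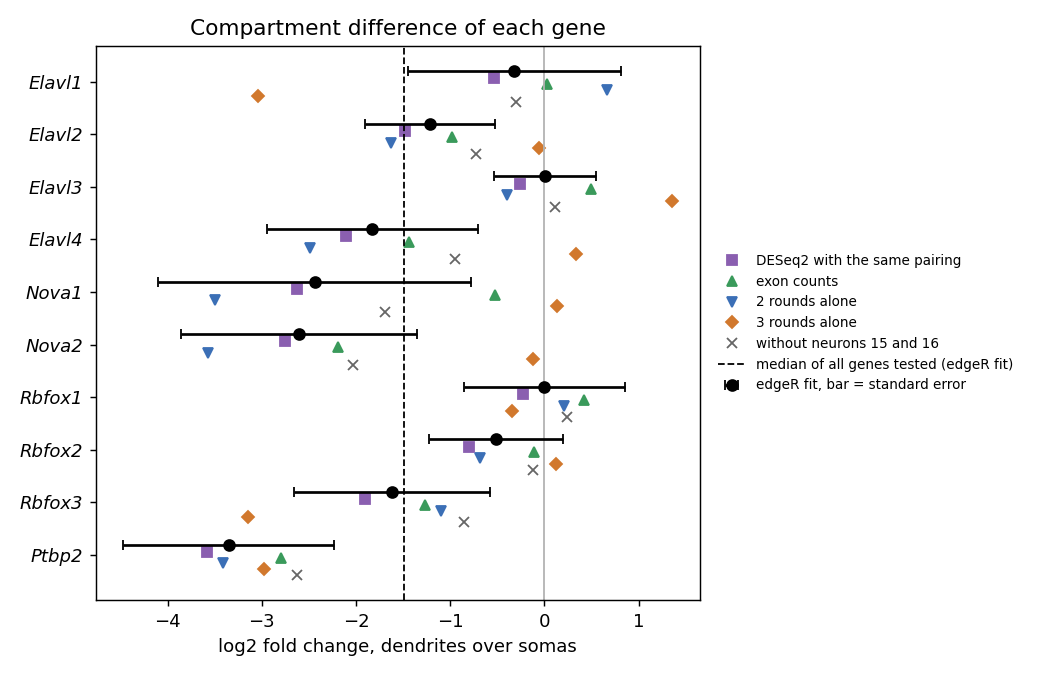
Log2 fold change, dendrites over somas, for each gene from the edgeR fit (black circles, bars are standard errors, n = 16 neurons) and under 5 alternatives (other symbols). The dashed line is the median of all genes tested at -1.49; Elavl1, Elavl3, Rbfox1 and Rbfox2 lay right of it and Ptbp2 left of it, and Elavl1 had -3.04 in neurons with 3 rounds alone (n = 4) against 0.67 in those with 2 rounds.

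The dendritic share of a gene's reads in a neuron, computed from CPM where both compartments together had at least 10 reads, showed how far single cells departed from these averages. The median share was highest for Rbfox1 (55.5%), Elavl3 (51.0%), Rbfox2 (47.3%) and Elavl1 (46.5%). It was intermediate for Elavl2 (39.9%), Elavl4 (30.8%) and Rbfox3 (23.8%), and lowest for Nova2 (13.3%), Ptbp2 (11.1%) and Nova1 (7.67%). The median over 5068 genes with a share in at least 15 neurons was 32.5%. Of the 159 shares of the 10 genes, 38 were at or under 5%, where 27.0% of the shares over all these genes were. Another 3 were at or above 95% (Elavl1 in neuron 15, Nova1 in neuron 6 and Rbfox1 in neuron 12). The share varied least for Rbfox2 (SD 18.2 percentage points) and Elavl3 (18.2), below the median SD of 28.8 over all these genes, and most for Nova1 (39.9) and Elavl1 (34.4). The SD is a description that also carries counting error, which is larger for genes of few reads such as Nova1.

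Reads were found in 15 or all 16 dendrites for 4 of the 10 genes (Elavl2, Elavl3, Rbfox1 and Rbfox2), against 17.1% of the 10880 genes tested and 5.99% of the 31102 with any read. Elavl3 alone of the 10 had reads in all 16. Elavl1 and Elavl4 had reads in 14 dendrites, Nova2 and Rbfox3 in 13, and Nova1 and Ptbp2 in 12. Of the 160 dendrite values 21 were 0, of which 10 came from neurons 15 and 16, and of the 160 soma values 2 were 0. Over the 14 other dendrites the same 4 genes had a read in every one. A 0 in 1 library allows up to 3 reads, or 0.478 to 4.01 CPM depending on the dendrite library, and covers counting error only; losses during capture and amplification add to it.

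The order of the genes was read from exon counts, as CPM per kilobase of annotated exon, a scale that divides by length and so depends on the annotated exons. In somas the medians were 51.3 for Rbfox1, 50.6 for Elavl2, 44.6 for Elavl3, 23.8 for Elavl4, 20.6 for Rbfox3, 18.4 for Rbfox2, 14.5 for Ptbp2, 3.47 for Nova2, 3.06 for Elavl1 and 1.87 for Nova1. Of the 9 steps between neighbours 2 exceeded the spread over neurons in an exact sign-flip permutation test (two-sided, adjusted over 18 comparisons): Elavl3 over Elavl4 (adjusted p = 0.0118, 14 of 16 neurons) and Ptbp2 over Nova2 (adjusted p = 0.00604, 14 of 16 neurons). The other soma steps did not exceed their spread. Only neighbours were compared, in an order taken from these same values, so the steps do not sort the genes into groups. In dendrites the medians were 55.0 for Rbfox1, 54.2 for Elavl3, 31.6 for Elavl2, 19.7 for Elavl4, 18.2 for Rbfox3, 16.3 for Rbfox2, 3.40 for Elavl1, 3.08 for Nova1, 2.04 for Ptbp2 and 0.501 for Nova2. No neighbouring step passed in dendrites; the smallest adjusted p was 0.0789, for Rbfox2 over Elavl1 (14 of 16 neurons). Reads of amplified RNA gather near 3′ ends, so the per-kilobase level of a gene with long exons is understated. Rbfox1 had the shortest annotated exons of the 10 genes (4400 nt), and by CPM on the 3′UTR its soma median of 221 was below those of Elavl2 (432) and Elavl3 (341).

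The compartment difference was also compared between neurons amplified in 3 and in 2 rounds. Elavl1 was lower in dendrites in all 4 neurons with 3 rounds and higher in dendrites in 8 of 12 with 2 rounds, and its fitted log2 difference between the rounds was -3.98 (unadjusted p = 0.117). Elavl3 was higher in dendrites in all 4 neurons with 3 rounds and in 4 of 12 with 2 rounds, with a difference of 1.56 (unadjusted p = 0.211). In edgeR's interaction fit 0 of 10 genes reached an adjusted p of 0.05 and 0 of 10 an unadjusted p of 0.05, where 0.0% and 2.65% of all genes did. DESeq2 with the same terms also called 0 of the 10. Rounds and anything else that differed between the 2 sets of neurons cannot be told apart.

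The 27 end features, each the last stretch of one or more annotated 3′ ends, were uneven in their reads. Rbfox1, Rbfox2 and Elavl1 had 1 feature each, and 7 genes had 2 to 5. Of the 27 features 3 had no read in any library and 12 passed the filter of 1 read in 16 libraries. Pooled over libraries, 1 end held nearly all end reads of Elavl2 (99.6% on end 1), Ptbp2 (97.2% on end 2), Elavl3 (94.1% on end 1) and Nova2 (93.7% on end 2). The soma of neuron 15 was the reverse for Nova2, with 158 reads on end 1 and 2 on end 2. Elavl4 (77.4% on end 1 and 22.4% on end 2) and Rbfox3 (78.8% on end 1 and 18.5% on end 2) used a second end. The files number the ends without giving their coordinates, so the numbers could not be assigned to the poly(A) signals shown above.

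At the level of single ends, 2 of the 12 tested features were called higher in somas, against 16.9% of 10652 features, and none was called higher in dendrites, against 0.723%. They were end 1 of Elavl4 (log2 fold change -4.29 ± 1.46, edgeR adjusted p = 0.0392) and end 2 of Ptbp2 (-3.38 ± 1.20, edgeR adjusted p = 0.0456). End 1 of Elavl4 had reads in all 16 somas and in 9 dendrites, with medians of 57.3 and 1.45 CPM, and end 2 had reads in 13 somas and 8 dendrites (-2.97 ± 1.54, edgeR adjusted p = 0.143). End 2 of Ptbp2 had reads in 16 somas and 12 dendrites, with medians of 186 and 18.7 CPM. Both calls were lost without the replicate block (adjusted p = 0.817 and 0.353), with scaling to the median feature (0.413 and 0.621) and in the neurons with 2 rounds alone (0.102 and 0.139).

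The share of the major end among the top 2 ends did not differ between compartments past the threshold in any of the 6 genes that could be tested (0 of 6 at p under 0.1 in an exact signed-rank test over neurons, against 8.4% of 3522 genes). Elavl4 had 62.5% ± 44.2 of reads on end 1 in dendrites and 61.1% ± 35.2 in somas (SD, n = 7 neurons; exact p = 0.938). Single neurons went either way: neuron 9 had 74.0% in dendrites and 30.9% in the soma, and neuron 10 had 0% in dendrites and 59.1% in the soma. Rbfox3 had 77.0% ± 28.5 on end 1 in dendrites and 82.2% ± 14.5 in somas (n = 9; exact p = 0.570), with 1 neuron far from the rest, neuron 12, at 6.19% in dendrites against 96.1% in the soma. Elavl2, Elavl3, Nova2 and Ptbp2 used their major end at 94.1% to 100% in dendrites and 85.8% to 99.6% in somas (exact p from 0.250 to 0.765). The compartments differed in 4 of the 6 neurons of Nova2 and in 2 of the 9 of Ptbp2, so their exact tests could not go below p = 0.125 and p = 0.500.

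**Figure D3:**
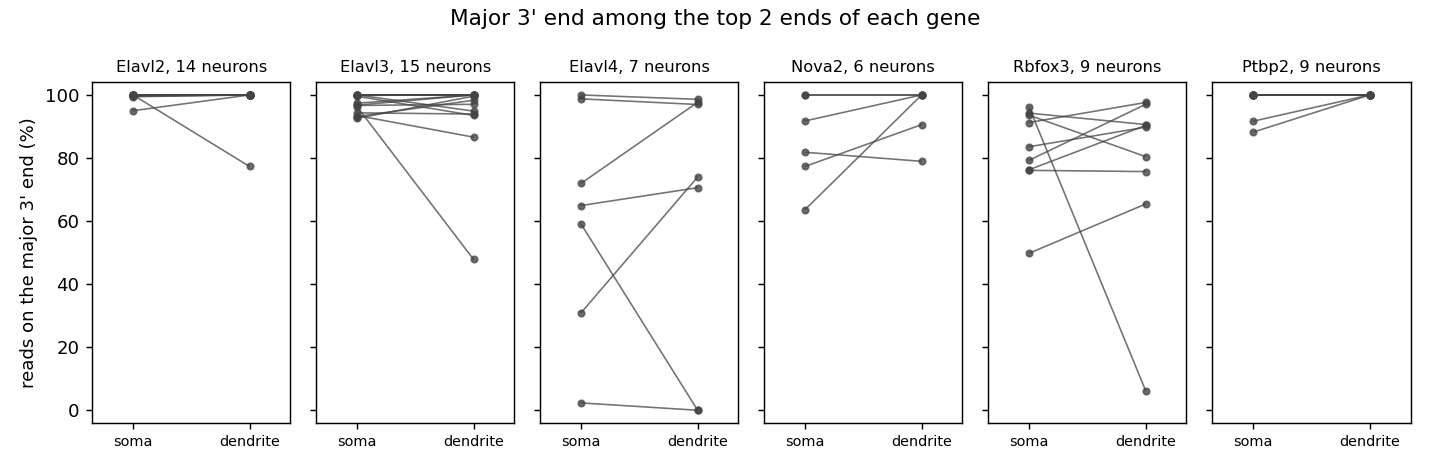
Share of reads on the major 3′ end among the top 2 ends, in percent, in the soma and dendrites of each neuron with at least 10 reads in both compartments, for the 6 genes tested. Lines of Elavl4 and Rbfox3 cross in both directions, and most of those of Elavl2 and Ptbp2 lie near 100%. Exceptions are Elavl2 in the dendrites of neuron 5 (77.3%) and Ptbp2 in the somas of neurons 2 (91.7%) and 6 (88.2%).

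The reads on a gene's end features, as a share of those on its 3′UTR, set the genes apart. The 2 were counted separately, so the share can pass 100%, as for Rbfox3 in the soma of neuron 3 (249 against 248 reads). Over 5967 genes the median share was 95.1% in dendrites and 95.4% in somas. Rbfox3 (94.7% ± 4.08 in dendrites and 94.7% ± 2.17 in somas, SD, n = 9), Ptbp2 (96.6% ± 5.19 and 87.5% ± 9.24, n = 9) and Rbfox2 (95.7% ± 8.12 and 89.0% ± 8.73, n = 15) were near that level. Elavl3 (30.2% ± 22.5 and 33.4% ± 11.1, n = 16), Elavl4 (29.3% ± 27.7 and 42.4% ± 20.9, n = 10) and Elavl1 (38.0% ± 41.2 and 46.6% ± 32.0, n = 11) were far below it.

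With these low shares, the end features of Elavl1, Elavl3 and Elavl4 had far fewer reads on average than were counted on the 3′UTR. Where the other reads lay was not tested. Rbfox1 (49.1% ± 28.1 and 52.7% ± 25.5, n = 13) and Elavl2 (56.0% ± 29.3 and 69.0% ± 10.3, n = 14) were intermediate, and Nova2 was at 81.1% ± 27.2 and 85.5% ± 8.82 (n = 6). Nova1 stood lowest, with 0% in dendrites and 0.325% ± 0.859 in somas (n = 7). Its end features had almost no reads, except in the soma of neuron 3, where end 2 had 164 against 170 on the 3′UTR. That soma had 4 reads on the exons of Nova1. Between compartments Ptbp2 was higher in dendrites in 8 of 9 neurons (exact p = 0.0273, adjusted p = 0.740) and Rbfox2 in 11 of 15 (exact p = 0.0554, adjusted p = 0.793), so 1 of 10 genes had p under 0.05 against 5.85% of all genes and 2 of 10 had p under 0.1 against 10.6%, and none of the 5967 had an adjusted p of at most 0.05. The measure was added after the files were seen.

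**Figure D4:**
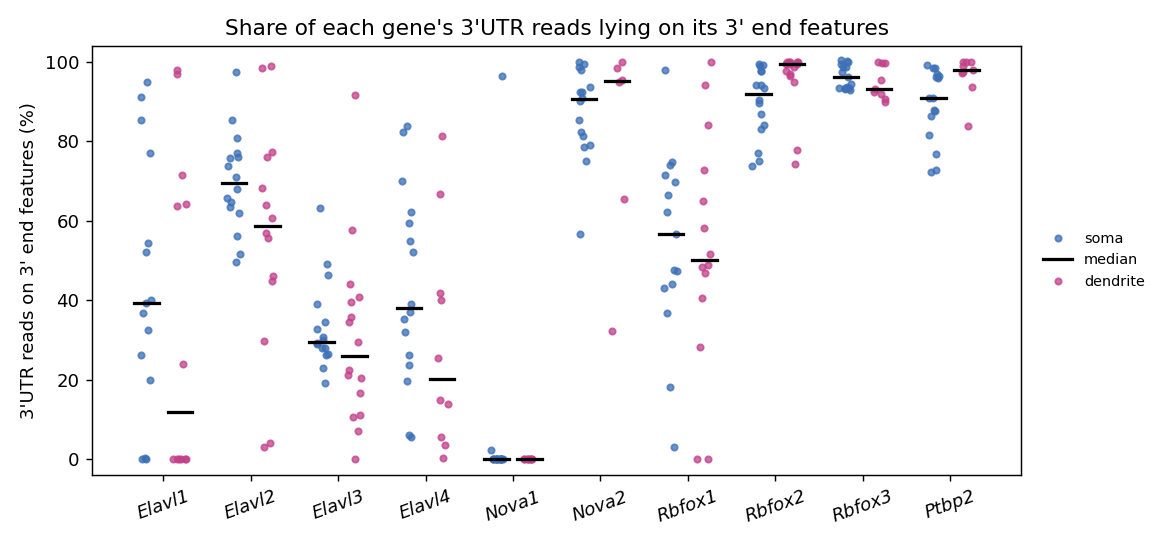
Reads on each gene's 3′ end features as a percentage of its 3′UTR reads, for every library with at least 10 reads on the gene (points, somas blue and dendrites pink, bars are medians). Nova1 lay near 0, Elavl1, Elavl3 and Elavl4 mostly under 60, and Nova2, Rbfox2, Rbfox3 and Ptbp2 mostly above 70.

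The motifs these proteins are known to read were searched in the last 500 nt of the longest 3′UTR of each of the 10 genes, on the transcript strand, with overlapping copies counted. TTTATTT, an AU-rich ELAV-type motif, was present in 5 of 10 (24.1% of the 7238 genes), and TCTTCT, a CU-rich motif, in 2 of 10 (23.2%; Elavl4 and Rbfox1). TGCATG, the Rbfox motif (16.4% of genes), and the Nova motif, TCAT repeated after a gap of 2 bases (1.46%), were in none of the 10 in this window. Farther from the end, TGCATG stood in the 3′UTR of Elavl1, Elavl3, Elavl4, Nova1, Nova2 and Ptbp2, where the share over all genes was not counted. Elavl1 held 11 copies of TTTATTT and the other 4 genes 1 each. For these 5 genes the copy nearest to the annotated end is shown in capitals, to show the letters matched; Elavl3 and Elavl4 held none in this window. A match is a description of the letters and not a binding site.
Elavl1, chr8:4285463-4285492, minus strand: atatgaaataaTTTATTTttcaggtaccat
Elavl2, chr4:91250903-91250932, minus strand: taaggctggtaTTTATTTgaagttgtacag
Nova1, chr12:46694945-46694974, minus strand: gtaggtctgcaTTTATTTgaaaaagccaag
Rbfox1, chr16:7411088-7411117, plus strand: aaactggtatcTTTATTTctatcaccaagg
Ptbp2, chr3:119719194-119719223, minus strand: tacaggtcaaaTTTATTTgaacagttcttg
In Elavl1, the copy shown lay 100 nt before the annotated end. The 5 genes with TTTATTT included genes above the median gene in dendrites over somas (Elavl1, Elavl2, Rbfox1) and below it (Nova1, Ptbp2).

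Other neural RNA-binding proteins were read from the same fit. Of 20 relatives 18 passed the filter, 0 were called in either direction, and their median log2 fold change was -0.99, with 15 of 18 above the all-gene median of -1.49. Ptbp1, the relative that Ptbp2 replaces, had reads in 5 dendrites and 10 somas and was not tested. The lowest p-values toward somas were those of Srrm4, a neuronal splicing activator (-2.78 ± 1.51, unadjusted p = 0.0722), and Khdrbs1, a KH-domain splicing factor (-1.97 ± 1.16, unadjusted p = 0.0942). Toward dendrites they were Raver2 (1.31 ± 1.38, unadjusted p = 0.346) and Msi1, a translational repressor (0.30 ± 1.21, unadjusted p = 0.805).

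Of 19 known targets of the 10 proteins 18 passed the filter and 0 were called in either direction, and 15 of 18 lay above the all-gene median. The median log2 fold change was -0.06 for the 6 ELAV targets, -2.26 for the 6 Nova targets, -0.74 for the 4 Rbfox targets and 0.75 for the 2 tested Ptbp2 targets. Snap25, a SNARE protein of synaptic vesicle fusion, had 0, 1198 and 4339 CPM in dendrites and 1775, 2712 and 4078 in somas (-1.22 ± 0.46, unadjusted p = 0.0104, edgeR adjusted p = 0.0808), and Kcnj6, a G-protein-gated potassium channel, had -3.17 ± 1.36 (unadjusted p = 0.0232, adjusted p = 0.114). Toward dendrites, Bdnf, a neurotrophin, had 0, 43.3 and 309 CPM in dendrites and 0, 12.3 and 129 in somas (2.69 ± 1.37, unadjusted p = 0.0551, edgeR adjusted p = 0.173), and Unc13b, a vesicle priming factor, had 1.14 ± 1.45 (unadjusted p = 0.437). Bdnf was higher in dendrites in 12 of 16 neurons. Without neurons 15 and 16, Snap25 passed the threshold toward somas (-0.94, edgeR adjusted p = 0.0196).

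Genes most like each member over the 32 libraries were found by Spearman's rho of log2(CPM + 1) among 6816 genes with reads in at least 24 libraries, as a description in which libraries of 1 neuron and of 1 depth share their source. Ptbp2 had the closest neighbours, Cd2bp2 (rho = 0.83) and Ash2l (0.81). They were followed by those of Rbfox3 (Cav2, 0.76, and Usp5, 0.74), Elavl4 (Pcbp3, 0.73, and Snn, 0.71) and Nova2 (Fem1a, 0.72, and Pim2, 0.71). For Rbfox2 they were 9930013L23Rik (0.72) and Nme7 (0.68), for Nova1 Tceal8 (0.68) and Zfp617 (0.63), and for Elavl2 Rbm39 (0.67) and Fhod3 (0.67). For Elavl3 they were Atp5f1 (0.67) and Ndufa10 (0.67), for Rbfox1 Stmn2 (0.63) and Taf13 (0.63), and for Elavl1 Snrpg (0.60) and Smim14 (0.58). None of the 10 genes was among the nearest 2 of another.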

How the data were processed

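The authors aligned reads to mm10 with STAR 2.4.0 and deposited raw read counts per library for combined 3′UTRs of each gene, for individual 3′ end features (last stretches of annotated ends, near ends merged) and for exons with ERCC spike-ins. From these counts, edgeR (4.0.16) was fitted to whole tables with TMM scaling, a robust quasi-likelihood test and neuron as a block. Genes needed 1 read in 16 of 32 libraries, and p-values were adjusted by Benjamini-Hochberg over all features. Same-numbered compartments came from 1 cell, and their deviations correlated at r = 0.0886 on average (-0.00561 between different neurons). SEs are |log2 fold change| over the root of F. End usage was tested by an exact two-sided signed-rank test, with 10 reads per compartment in at least 5 neurons. In simulated data for the gene comparison (10880 genes), 34 of 100 genes changed by log2 4 and 3 of 100 changed by log2 2 were called, and 0 of 10680 unchanged genes. Members, lists and tests were chosen with earlier results of these data known. All members, called list genes (with none called, the 2 smallest p in each direction) and the 2 nearest genes are named. Alternatives were DESeq2, other scalings, filters, subsets and left-out neurons. No per-sample column was left out.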

Additional observations from a re-analysis of the deposited data

How the results depend on the processing

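The values below are limited by depth: 3 reads in a dendrite library were worth 0.478 to 4.01 CPM, and calls moved with the tool, the table and the scaling. Genes of the 10 called higher in somas were 6 with DESeq2, 1 with RLE scaling (Ptbp2) and 8 with spike-in scaling, which also used exon counts and only the 14 neurons with spike-ins, and 0 to 1 when single neurons were left out. Without the replicate block, which the pairing by cell calls for, none of the 10 was called, and calls over the whole table numbered 157 toward dendrites and 77 toward somas, against 90 and 621 with it.

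Over all genes, those higher in dendrites were 463 with DESeq2, 548 with scaling to the median gene, 15 with no filter, 43 with 2 rounds alone, 4 with 3 rounds alone and 15 with spike-in scaling (56 to 120 with single neurons left out). Those higher in somas were 5029, 92, 143, 354, 1 and 6145 in the same order, 1008 with RLE scaling, 181 with at least 10 reads, 257 with exon counts, 289 with thinned pairs and 101 without neurons 15 and 16 (130 to 990 with single neurons left out). Of the relatives and targets, those higher in dendrites were 1 with DESeq2 and 1 with scaling to the median gene, and those higher in somas 10 with DESeq2, 1 with RLE scaling and 1 without neurons 15 and 16 (0 with single neurons left out).

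The direction turned as follows, in log2 fold change. Scaled to the median gene, Elavl1 had 1.17, Elavl2 0.28, Rbfox1 1.49, Rbfox2 0.98 and Snap25 0.27. With at least 10 reads Elavl1 had 0.00030 and Rbfox1 0.33, with exon counts 0.025 and 0.42, with thinned pairs 0.044 and 0.42, and with 2 rounds alone 0.67 and 0.21. Elavl1 had 0.76 without the replicate block and Rbfox1 0.24 without neurons 15 and 16. Elavl3 had -0.25 with DESeq2, -0.25 with RLE scaling, -0.12 with no filter, -0.39 with 2 rounds alone and -2.52 with spike-in scaling. With 3 rounds alone Elavl4 had 0.34, Nova1 0.14, Rbfox2 0.12, Srrm4 1.54, Khdrbs1 0.25 and Raver2 -4.15, and with exon counts Kcnj6 had 0.62 and Unc13b -0.41. With single neurons left out, Elavl1 ran from -0.55 to 0.21, Elavl3 from -0.12 to 0.40 and Rbfox1 from -0.23 to 0.55.

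End features of the 10 genes called higher in somas were 9 with DESeq2, 0 without the replicate block, 0 with scaling to the median feature and 0 with 2 rounds alone, against 2. Over all features those higher in dendrites were 223 with DESeq2, 692 with scaling to the median feature and 42 with 2 rounds alone, and those higher in somas 6415, 138 and 1039, and 134 without the block. In end usage over all genes 0 passed after adjustment, against 296 at p under 0.1 (253 to 306 with single neurons left out). The difference for Ptbp2 among all its ends was -0.249 percentage points. With single neurons left out, the differences ran from -1.66 to 0.47 for Elavl2, -3.96 to 0.0050 for Elavl3, -5.53 to 11.5 for Elavl4 and -8.11 to 5.35 for Rbfox3. Present in dendrites were 2 of the 10 at 10 reads and 1 in 16 of 16, and 761, 871 and 2882 of all genes at 10 reads, in 16 of 16 and in 14 of 16. DESeq2 called 44 genes between rounds. The cause of these changes was not tested.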

Other observations

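Elavl1 in neuron 15 had 320 reads in the dendrites and 1 in the soma (212 and 0.11 CPM), although the dendrites of that neuron had no read of 6 of the other 9 genes. The end feature of Nova1 that had 164 reads in the soma of neuron 3, against 170 on the 3′UTR, had 1 against 44 in the soma of neuron 1. The soma of neuron 3 had 4 reads on the exons of Nova1 against 170 on its 3′UTR, where the soma of neuron 1 had 43 and 44.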
